A study of Mus musculus with 2 samples.

Results

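The Mir15, Mir16, Mir103 and Mir107 group comprises 9 microRNA hairpin genes, of 2202 in the count tables, that were selected by symbol: Mir15a, Mir15b, Mir16-1, Mir16-2, Mir195a, Mir322, Mir103-1, Mir103-2 and Mir107. Their reads were measured by microRNA sequencing in left cerebral cortex of male B6CASTF1/J mice, the first-generation cross of C57BL/6 and CAST/Ei parents, at 14 days of age. There were 2 libraries, biological replicates 1 and 2 of a single group for which the labels name no treatment, made from total RNA of the short size class. Both carry the same donor label and a note of 3x males whose meaning the labels do not give, so whether they came from separate or pooled animals is not known, and SDs measure the spread between these libraries, which may be technical. With 1 group there is no comparison between conditions, and the levels of the hairpins and their agreement between the libraries are described.

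A microRNA is cut as a short duplex from a hairpin, and the strand kept in the silencing complex finds its targets mainly through its seed, bases 2 to 8. The miR-15 and miR-16 microRNAs restrain cell division, with cyclins, cyclin-dependent kinases and the survival factor BCL2 among their known targets. The miR-103 and miR-107 microRNAs lie in introns of the pantothenate kinase genes, which encode the enzyme of the first step of coenzyme A synthesis, and they are known for roles in insulin signalling and for repression of Dicer. Both sets are known from brain.

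The mature sequences divide the 9 hairpins into 2 seed groups that hold the same core at different positions. They are shown, as listed by RefSeq for GRCm38.p6, because the whole sequence and its copy number decide what the counts can tell apart. The seed is in capitals in each, and each runs 5′ to 3′.

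miR-15a-5p: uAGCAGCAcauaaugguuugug
miR-15b-5p: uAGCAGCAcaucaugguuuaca
miR-16-5p: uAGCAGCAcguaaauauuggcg
miR-195a-5p: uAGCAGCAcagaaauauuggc
miR-322-5p: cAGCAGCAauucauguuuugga
miR-103-3p: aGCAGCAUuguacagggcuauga
miR-107-3p: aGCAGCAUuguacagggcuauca

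The miR-15 and miR-16 guides share 1 seed, and all lie on the 5′ arm. The miR-103 and miR-107 guides share another and lie on the 3′ arm. A common 7-base core occupies bases 2 to 8 in the first group and bases 1 to 7 in the second. Compared from base 1, with the seed included, miR-16-5p and miR-195a-5p were identical at 19 of 21 bases. They differed by G10A and U11G, counted from 1 at the 5′ end with the base of the first named microRNA first. For miR-15a-5p and miR-15b-5p the match was 18 of 22 bases, while miR-15a-5p and miR-322-5p matched at 15 of 22. GC content of these 7 sequences ranged from 40.9% to 47.8%.

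Of the 9 hairpins, 4 carry a guide that is encoded in 2 genes. The whole of miR-16-5p is present in Mir16-1 and Mir16-2, and the whole of miR-103-3p in Mir103-1 and Mir103-2. No gene received reads that fit more than 1 genomic position, so reads of these 2 guides count only where they extend past what the copies share. The longest stretch common to each pair of hairpins is shown with the guide in capitals.

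Mir16-1 and Mir16-2: UAGCAGCACGUAAAUAUUGGCGu
Mir103-1 and Mir103-2: ucaAGCAGCAUUGUACAGGGCUAUGAa

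The first stretch covers 23 bases and the second 27. The mature sequence of miR-107-3p is not in either Mir103 hairpin, but it differs from miR-103-3p only by G22C, so that its first 21 bases are in all 3 hairpins. Opposite arms can also give reads to a hairpin gene, and arms are not separated in the counts. In the Mir103 hairpins the 5′ arms are nearly the same too.

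miR-103-1-5p: gGCUUCUUuacagugcugccuug
miR-103-2-5p: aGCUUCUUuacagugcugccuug
miR-107-5p: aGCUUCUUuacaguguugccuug

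The first pair differs by G1A alone, and miR-103-2-5p and miR-107-5p differ by C16U alone. Each of these 5′ arms is present whole in 1 of the 2202 annotated hairpins. The same holds for the 3′ arms of the miR-16 hairpins, miR-16-1-3p (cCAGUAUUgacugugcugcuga) and miR-16-2-3p (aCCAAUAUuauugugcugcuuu).

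All 9 hairpins were detected, that is, had at least 10 counts in each library, against 18.4% of all microRNA genes. Together they held 33899 of 4111167 counts in replicate 1 and 27289 of 3189903 in replicate 2, or 0.840% ± 0.0219 (SD, n = 2). The exact Clopper-Pearson 95% interval was 0.816 to 0.833% in replicate 1 and 0.845 to 0.866% in replicate 2. Intervals cover counting error only, and since the tables hold reads rather than tagged molecules, they can be too narrow. In bulk tissue, fewer cells of a type and less RNA per cell cannot be told apart. The 6 hairpins with the miR-15 and miR-16 seed held 0.507% ± 0.0266 and the 3 Mir103 and Mir107 hairpins 0.333% ± 0.00472 of the counts. The median log2(CPM + 1) of the 9 was 9.06, beside 7.02 over the 406 detected genes and 0 over all 2202; CPM is the count on the gene's own strand scaled to a common library total (counts per 1e6).

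Mir107 was the most abundant hairpin of the group and Mir103-1 the least, at mean CPM values of 3272 and 11.9. Between them, in falling order of mean CPM, lay Mir322, Mir195a, Mir15a, Mir15b, Mir16-1, Mir16-2 and Mir103-2. Of the 8 neighbouring pairs in this order, only Mir195a and Mir15a overlapped between the libraries: Mir15a was higher in replicate 1 and Mir195a in replicate 2. Mir16-2 and Mir103-2 came close, since the lowest value of Mir16-2 was 52.3 CPM and the highest of Mir103-2 was 50.2 CPM. CPM values are per hairpin. Per hairpin base, with hairpins of 64 to 95 bases, the order changed only in that Mir15a (10.8 CPM per base) came before Mir195a (10.1 CPM per base). The 5 hairpins whose guide is in 1 gene had mean CPM values from 533 to 3272. The 4 hairpins whose guide is in 2 genes ranged from 11.9 to 292, and held 3.53% of the group's counts in replicate 1 and 6.47% in replicate 2. Guide reads that fit both copies are left out of these 4 hairpins, so their values can be too low. The value of Mir107 can be too low as well, since reads within the stretch it shares with the Mir103 hairpins are left out. The order of the hairpins need not be the order of the mature microRNAs.

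**Figure D1:**
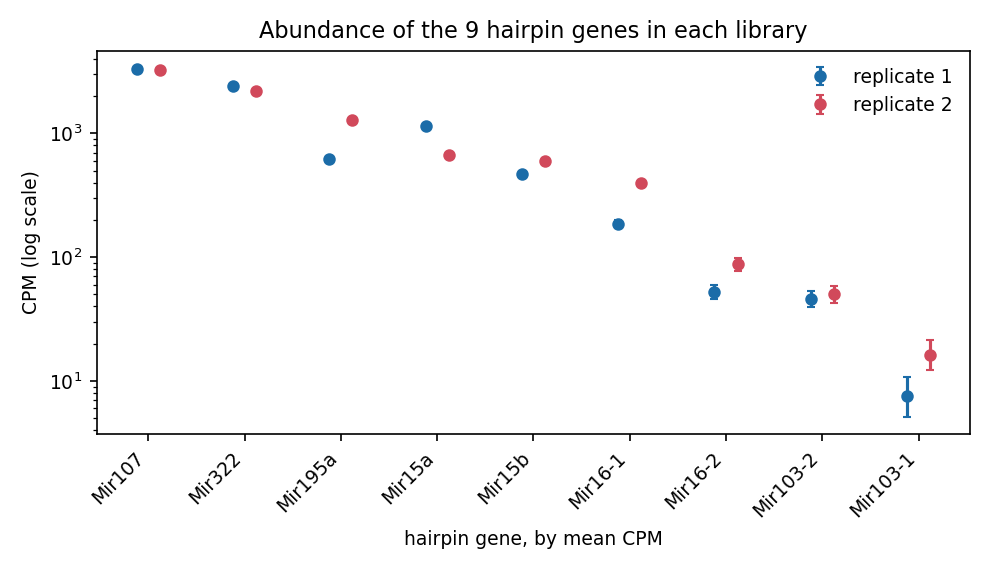
CPM (log axis) of each of the 9 hairpin genes in replicate 1 (blue) and replicate 2 (red), ordered by mean CPM. Bars are exact 95% intervals for counting error, smaller than the points for the abundant genes. Mir107 lies at 3311 and 3232 CPM, while Mir103-1 lies at 7.54 and 16.3 CPM. Values of Mir16-1, Mir16-2, Mir103-1 and Mir103-2 leave out guide reads that fit both copies. The value of Mir107 leaves out reads within the stretch it shares with the Mir103 hairpins.

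Mir107 lies in an intron of Pank1 on the minus strand (ENSMUSG00000065594.1; chr19:34820687-34820773, mm10, GENCODE M21). It had 13614 counts in replicate 1 and 10310 in replicate 2, or 3311 and 3232 CPM. The libraries were close, with a log2 ratio of CPM, replicate 2 over replicate 1, of -0.04, and the mean of 3272 ± 56.1 CPM (SD, n = 2) ranked 57th of 2202 genes. Directly above it in mean CPM stood Mir92b (3425) and Mir1983 (3398), and directly below it Mir181c (3134) and Mir7b (3092).

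The Mir103 copies had far fewer counts. Mir103-2, in an intron of Pank2 (ENSMUSG00000065563.1; chr2:131288052-131288137, plus strand), had 190 and 160 counts, or 46.2 CPM in replicate 1 and 50.2 in replicate 2. Mir103-1, in an intron of Pank3 (ENSMUSG00000065553.1; chr11:35782396-35782481, plus strand), had 31 and 52 counts, or 7.54 and 16.3 CPM. Mir103-2 was the higher copy in both libraries, and the count of Mir103-1 was 0.163 times that of Mir103-2 in replicate 1 (95% interval 0.108 to 0.239) and 0.325 times in replicate 2 (0.233 to 0.447). Mir107 held 98.2% ± 0.295 (SD, n = 2) of the counts of the 3 pantothenate kinase hairpins. Its count was 71.7 times that of Mir103-2 in replicate 1 and 64.4 times in replicate 2. Mir107 shares a 24-base stretch with each Mir103 hairpin, which holds the first 21 bases of its guide, and reads within what the hairpins share are left out, so they do not give the ratio of mature miR-107 to miR-103.

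Mir15a and Mir16-1 lie 54 bases apart on the minus strand of chromosome 14 within Dleu2, a non-coding gene whose human counterpart is deleted in many chronic lymphocytic leukaemias. Mir15a (ENSMUSG00000093007.1; chr14:61632027-61632110, intronic) had 4712 counts in replicate 1 and 2142 in replicate 2, or 1146 and 671 CPM. Mir16-1 (ENSMUSG00000092995.1; chr14:61631880-61631972, overlapping an annotated Dleu2 exon) had 762 and 1274 counts, or 185 and 399 CPM. The 2 hairpins of this transcript therefore differed in opposite directions between the libraries: Mir15a was lower in replicate 2 by 0.77 and Mir16-1 higher by 1.11 on the log2 scale. Mir15a exceeded Mir16-1 by 6.18 times in replicate 1 (95% interval 5.73 to 6.68) and by 1.68 times in replicate 2 (1.57 to 1.80). Reads of miR-16-5p within the 23 bases shared with Mir16-2 are left out, so these values do not give the ratio of mature miR-15a to miR-16.

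The paralogous pair Mir15b and Mir16-2 lies 66 bases apart in an intron of Smc4, which encodes a core subunit of condensin, the complex that compacts chromosomes for mitosis. Mir15b (ENSMUSG00000065580.2; chr3:69009772-69009835, plus strand) had 1918 counts in replicate 1 and 1914 in replicate 2, or 467 and 600 CPM. Mir16-2 (ENSMUSG00000065606.1; chr3:69009902-69009996, plus strand) had 215 and 279 counts, or 52.3 and 87.5 CPM. Both were higher in replicate 2, and Mir15b exceeded Mir16-2 by 8.92 times in replicate 1 (95% interval 7.74 to 10.3) and 6.86 times in replicate 2 (6.05 to 7.81). The Dleu2 pair held 0.120% ± 0.0184 (SD, n = 2) of all counts and the Smc4 pair 0.0603% ± 0.0119, each summed over its 2 hairpins.

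Mir195a (ENSMUSG00000065411.2; chr11:70235042-70235135, plus strand) lies in no annotated host on that strand and 241 bases downstream of Mir497, whose 5′ guide has the same seed. Mir195a had 2556 counts in replicate 1 and 4082 in replicate 2, or 622 and 1280 CPM. Mir497 had 4585 and 2780 counts, or 1115 and 871 CPM. Here too the partners differed in opposite directions, since Mir195a was higher in replicate 2 by 1.04 on the log2 scale and Mir497 was lower by 0.36. The order within the pair changed with the library: the count of Mir195a was 0.557 times that of Mir497 in replicate 1 (95% interval 0.531 to 0.585) and 1.47 times in replicate 2 (1.40 to 1.54). Mir497b, annotated on the opposite strand over Mir497, had 0 counts on its own strand in both libraries. With strand ignored, the reads at Mir497 overlap 2 genes and both Mir497 and Mir497b had 0 counts.

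Mir322 (ENSMUSG00000065418.1; chrX:53054255-53054349, minus strand) heads a cluster of 7 hairpins within 10 kb on chromosome X and was the second most abundant hairpin of the group. It had 9901 counts in replicate 1 and 7076 in replicate 2, or 2408 and 2218 CPM. Mir503, 200 bases downstream, carries the related seed AGCAGCG in its 5′ guide and is known with Mir322 for promoting exit from the cell cycle in muscle precursors. Its counts were 251 and 271, or 61.1 and 85.0 CPM, so Mir322 exceeded it by 39.4 and 26.1 times. Mir351, a microRNA with the miR-125 seed, had 593 and 817 CPM. Further downstream Mir542 had 86.8 and 75.2 CPM and Mir450b 11.4 and 9.09 CPM. Mir450-1 was counted 4 times in replicate 1 and 0 times in replicate 2, and Mir450-2 3 times and once. Both carry the same 5′ mature sequence, so their low counts set no limit on its abundance. The 7 hairpins held 0.318% ± 0.00304 (SD, n = 2) of all counts, and Mir322 was the highest of them in both libraries.

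**Figure D2:**
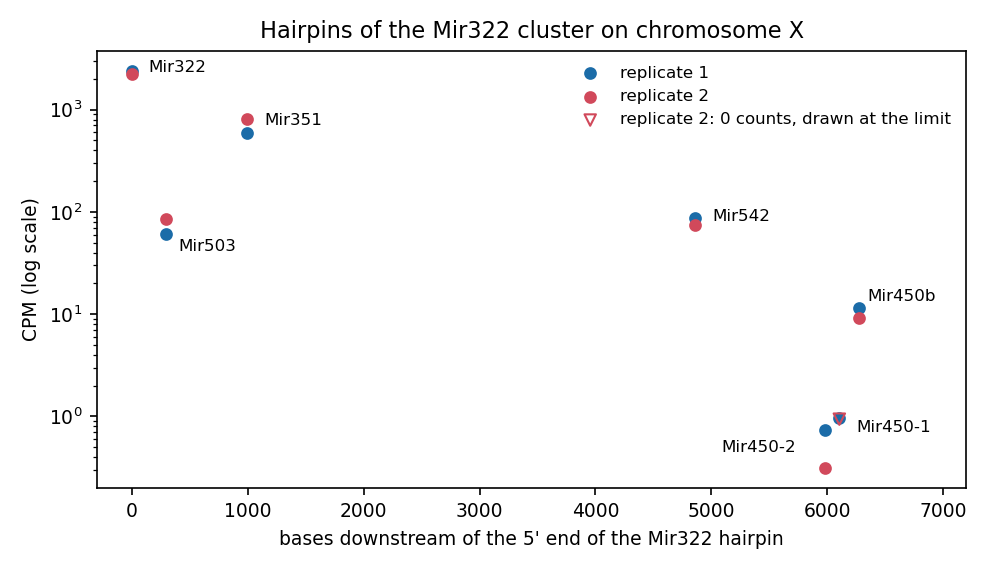
CPM (log axis) of the 7 hairpins of the Mir322 cluster against the distance of each hairpin's 5′ end from that of Mir322, in bases, for replicate 1 (blue) and replicate 2 (red). The open triangle marks 0 counts, drawn at the limit that a count of 0 allows, 0.940 CPM. Mir322 lies at 2408 and 2218 CPM, Mir351 at 593 and 817 CPM, and the 3 Mir450 hairpins at 11.4 CPM or less.

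Within these loci, ratios between hairpins do not depend on the library total. Between the libraries the ratio changed most, by 3.68 times, for Mir15a over Mir16-1. For Mir195a over Mir497 it was 2.63 times as high in replicate 2. Smaller changes were found for Mir322 over Mir503 (1.51 times as high in replicate 1), Mir322 over Mir351 (4.06 in replicate 1 and 2.71 in replicate 2) and Mir15b over Mir16-2 (1.30 times). For the first 4 of these the 95% counting intervals of the libraries did not overlap, while those of Mir15b over Mir16-2 met between 7.74 and 7.81. The ratio of Mir322 to Mir542, 27.7 and 29.5, and that of Mir503 to Mir351, 0.103 and 0.104, differed by less than their counting intervals. These intervals make no allowance for spread between libraries of 1 group, for which 2 libraries give no test that could pass 0.05.

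**Figure D3:**
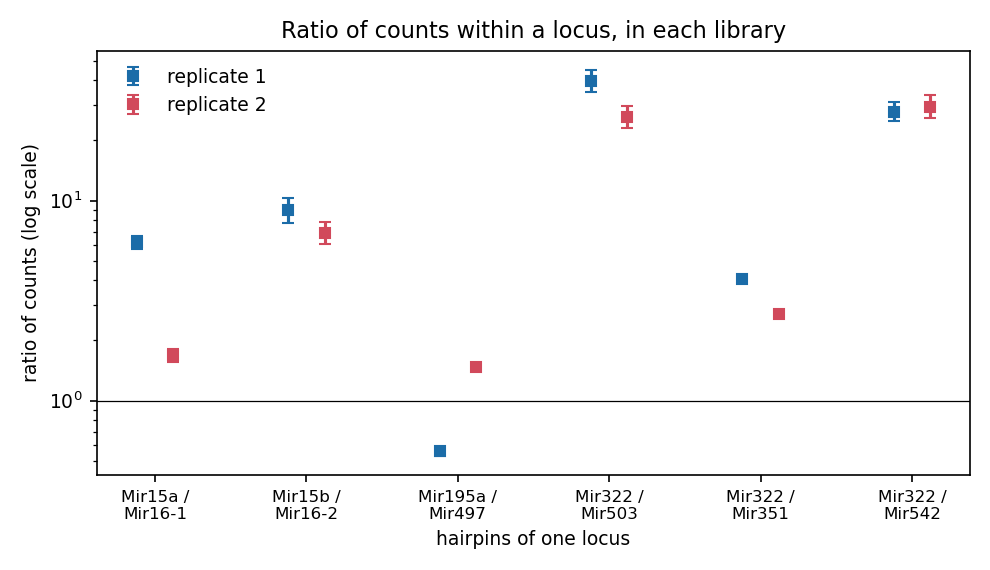
Ratio of counts (log axis) between hairpins of the same locus in replicate 1 (blue) and replicate 2 (red), with exact 95% intervals for counting error. The horizontal line marks equal counts. Mir15a over Mir16-1 is 6.18 in replicate 1 and 1.68 in replicate 2, Mir195a over Mir497 lies at 0.557 and 1.47 on either side of the line, and Mir322 over Mir542 is 27.7 and 29.5.

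Each detected gene's split of reads between the libraries was tested by an exact binomial test, two-sided, against the split expected from the library totals, with Benjamini-Hochberg adjustment over all 406 detected genes. This test compares 2 libraries, not conditions. Its p-values weigh each difference against counting error alone. A pass therefore does not show a difference larger than the spread between replicate libraries. Of all detected genes 58.1% passed an adjusted p of 0.05, 23.4% higher and 34.7% lower in replicate 2. Of the 9 hairpins 7 passed: Mir15b, Mir16-1, Mir16-2, Mir195a and Mir103-1 were higher and Mir15a and Mir322 lower in replicate 2. Mir103-2 (log2 ratio 0.12; adjusted p = 0.545, exact binomial test) and Mir107 (log2 ratio -0.04; adjusted p = 0.101, exact binomial test) did not pass. The lower count of Mir322 was small (log2 ratio -0.12; adjusted p = 3.45e-07, exact binomial test). With library sizes from TMM, which raise every log2 ratio by 0.08, Mir322 no longer passed (log2 ratio -0.04; adjusted p = 0.132, exact binomial test) and Mir107 passed in the other direction (log2 ratio 0.04; adjusted p = 0.0352, exact binomial test).

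Mir16-1, Mir195a and Mir103-1 were over 2-fold higher in replicate 2, at log2 ratios of 1.11, 1.04 and 1.11. Over all detected genes 9.85% were more than 2-fold apart in either direction. The median absolute log2 ratio was 0.74 over the 9 hairpins and 0.30 over the 406 detected genes. It was 0.76 over the 6 hairpins with the miR-15 and miR-16 seed and 0.12 over the 3 Mir103 and Mir107 hairpins. Read sampling limits single values most at Mir103-1, which had the fewest counts; its 95% intervals were 5.12 to 10.7 CPM in replicate 1 and 12.2 to 21.4 CPM in replicate 2. Summed, the 6 hairpins with the miR-15 and miR-16 seed held 0.488% of the counts in replicate 1 and 0.526% in replicate 2.

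**Figure D4:**
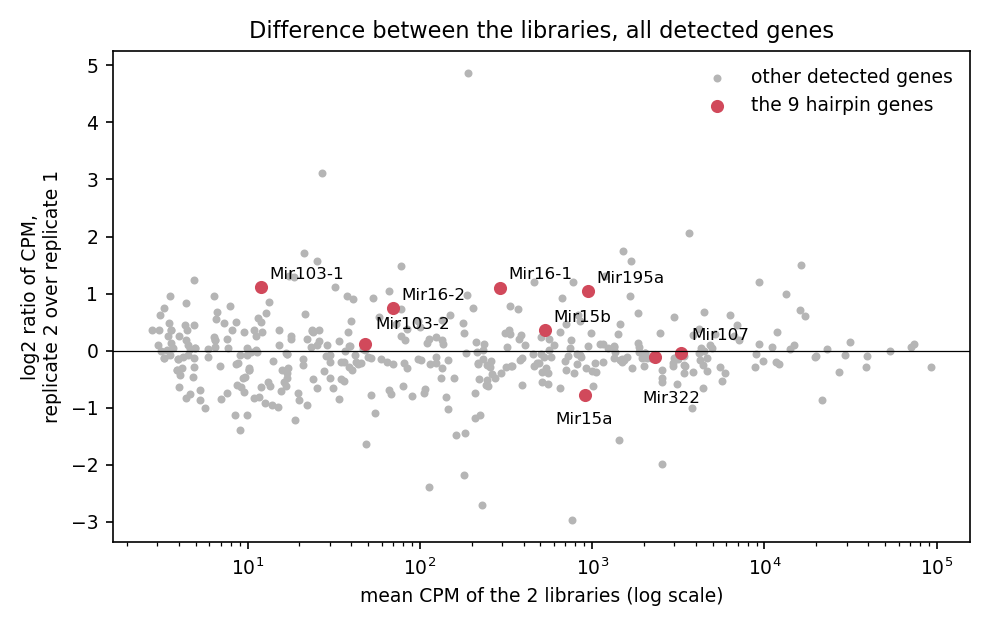
Log2 ratio of CPM, replicate 2 over replicate 1, against mean CPM (log axis) for the 406 detected genes, with the 9 hairpins in red and labelled. Mir107, Mir322 and Mir103-2 lie near 0, Mir16-1, Mir195a and Mir103-1 lie just above 1, and Mir15a lies at -0.77.

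The other hairpins with a mature sequence of the same seed as miR-15a-5p were Mir497, Mir195b, Mir6342, Mir6353 and Mir6419, and only Mir497 had counts. No read was counted at the remaining 4 in either library; the upper limit that this sets is 0.730 CPM for replicate 1 and 0.940 CPM for replicate 2, at 3 counts. It covers reads of a single position only, since a read that also fits elsewhere in the genome would not be in these counts. The sequences of 2 of them show how close they stand to members.

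miR-195b: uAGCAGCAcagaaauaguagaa
miR-6353: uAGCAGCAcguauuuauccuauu

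The first 16 bases of miR-195b are those of miR-195a-5p, and the first 12 of miR-6353 are those of miR-16-5p. Reads that end within these bases would match both places. Mir1907, also on the list of related hairpins, had 0 counts in both libraries, and its mature sequence was not compared. With Mir497 added, hairpins of this seed held 0.606% ± 0.00934 (SD, n = 2) of the counts.

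Beside the group's 0.840%, the miR-17 to miR-92 cluster and its paralogs, the miR-106b to miR-25 and miR-106a to miR-363 clusters, which favour proliferation, together held 0.654% ± 0.0161 of the counts with 11 of 15 hairpins detected. The Mir26 hairpins in Ctdsp genes, a family with a duplicated guide like miR-16, held 0.484% ± 0.00501, nearly all from Mir26b. Mir26a-1 and Mir26a-2 share a stretch and reads that fit both are left out, so this sum can be too low. In replicates 1 and 2, Mir26a-1 had 9 and 32 counts, and Mir26a-2 had 52 and 1175. No test over samples can compare these sums. The tissue label was set against marker microRNAs: neuronal hairpins held 3.61% ± 0.0131 of the counts with 7 of 11 detected, but Mir124a-1, Mir124a-2 and Mir124a-3, whose mature form has several genomic copies, had 2 to 19 counts each. Endothelial Mir126a held 1.18% ± 0.193, smooth muscle markers 0.515% ± 0.0101, and oligodendrocyte markers 0.270% ± 0.0235, while microglia and leukocyte markers held 0.103% in replicate 1 and 0.0970% in replicate 2. Muscle markers held 0.00281% ± 0.000288, a sum in which Mir1a-1, Mir1a-2, Mir133a-1 and Mir133a-2 are at 0 and, sharing a stretch with another hairpin, can be counted too low. Liver Mir122 stood at 49.9 ± 2.72 CPM. Single markers of several cell types differed between the libraries in both directions. In log2 ratio of CPM, replicate 2 over replicate 1, Mir126a stood at 0.33, erythroid Mir451a at 0.93, pancreatic Mir375 at 1.05 and leukocyte Mir142 at -0.80. Other markers of the same lists did not follow. Erythroid Mir144 stood at 0.10, and the microglia and leukocyte markers Mir223, Mir155 and Mir150 at 0.21, 0.18 and -0.05. The erythroid markers, Mir451a and Mir144, held 0.00516% of the counts in replicate 1 and 0.00862% in replicate 2. The part of these markers in the values of the 9 hairpins was not tested. Reads that matched several positions made up 39.1% and 41.4% of all reads.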

How the data were processed

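The authors deposited 1 table of raw read counts per microRNA gene for each library, with no normalization; by its row names and layout, the deposited table gives counts with strand ignored, on the gene's strand and on the opposite strand, after rows for reads in no gene. The deposited descriptions name mm10 and GENCODE M21; for the aligner and counter, the name is not given in the sources used. All 2202 gene IDs matched GENCODE M21, from which symbols, positions and hosts came. Mature sequences came from RefSeq (GRCm38.p6), matched by symbol for 9 of 9 members.

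Counts on the gene's strand, 4111167 and 3189903 in all, were scaled to CPM. Detection needed 10 counts in each library. A count of 0 allows 3 counts. Libraries were compared per gene with an exact binomial test (SciPy 1.17.1). Its check on simulated data drew counts with read sampling error only, so that check does not cover spread between libraries. TMM factors came from edgeR 4.0.16 and size factors from DESeq2 1.42.0. Named genes were the members, hairpins within 10 kb on the same strand or overlapping on the other, the seed list and the 2 genes either side of the leading member. Cell type markers came from a fixed list; of those, and of the comparison lists, the single genes named were chosen after their values were seen. Mir139 is named as the most abundant gene. Mir497a is Mir497 in this annotation. Alternatives covered strand, denominators, count minimum, pseudocount, library size, threshold and left-out genes or replicates. The members and lists were chosen with earlier results of these data known.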

Additional observations from a re-analysis of the deposited data

Results flagged for a closer look

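Reads that matched several genomic positions lie outside the counts used here and are listed as data that were not analysed. They made up 39.1% of all reads in replicate 1 and 41.4% in replicate 2. How many of them carry miR-16-5p or miR-103-3p was not analysed here. Groups of 2 libraries are too small for the check for a library that stands apart.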

How the results depend on the processing

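Of 32 recomputed values of the main results, under alternatives other than a left-out replicate, 17 stayed within 1 SD (shares, medians, ratios) or 1.5 times (counts) and 15 did not; those 15 are shares, and they moved because the denominator or the list changed. For the 9 hairpins, the 6 with the miR-15 and miR-16 seed and the 3 Mir103 and Mir107 hairpins in turn, shares were 0.902, 0.544 and 0.358% with strand ignored; 0.307, 0.185 and 0.122% of all reads; 0.925, 0.558 and 0.367% without Mir139, the most abundant gene; 0.515, 0.276 and 0.00603% without the leading member; and 0.798, 0.471 and 0.327% without hairpins whose guide is in 2 genes. Without either replicate, the share of the 9 ranged from 0.825 to 0.855%, which with 2 libraries says nothing about stability. Among 27 log2 ratios of single hairpins, 23 kept direction and side of the threshold. Mir107 turned from -0.04 to 0.044 with TMM and to 0.047 with DESeq2 size factors, and Mir322 no longer passed with either (adjusted p = 0.132 and 0.170, exact binomial test). The number of the 9 that passed was 7 under each library size, but with TMM or DESeq2 it held 6 higher and 1 lower, and 6 at a minimum of 50 counts, where Mir103-1 was not tested. No paired analysis was possible because there is 1 group. The ratio of Mir195a to Mir497 has no value with strand ignored, since Mir497 then has 0 counts. The other ratios could not move with strand ignored, because the counts of their hairpins were the same either way. The SD used as a limit rests on 2 libraries, so staying within it says little about stability.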
